A study of Mus musculus with 26 samples.

Results

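The 10 genes described here mark endothelial cells or belong to the VEGF and TIE signalling systems of blood vessels. They were chosen by gene name: Vegfa, Angpt1, Kdr, Flt1, Tek, Tie1, Pecam1, Cdh5, Cldn5 and Vwf. All 10 were found among the 56941 genes listed in the count matrix, and all 10 were among the 15357 genes with enough counts to be tested. They were measured by RNA sequencing of left ventricle from 26 mice aged 12 to 16 weeks that had received saline for 2 weeks from an osmotic minipump. All mice were homozygous for a floxed allele (Ppp2r2aL/L) of Ppp2r2a, which encodes B55α, one of the subunits that direct the phosphatase PP2A to its substrates. Knockout mice (cKO, aMHC-CreTg/0-Ppp2r2aL/L) also carried Cre under the aMHC promoter, which is active in cardiomyocytes, and controls (Ctrl, aMHC-Cre0/0-Ppp2r2aL/L) carried none. Of males, 6 were Ctrl and 7 were cKO, and the females were divided the same way. The strain label is C57BL/6N, but the background was mixed: floxed mice derived from C57BL6/N were crossed with aMHC-Cre mice on FVB, and mice with Cre can hold FVB sequence near it. No group with Cre and without floxed alleles was analysed here.

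VEGF-A is a secreted factor, made in the heart largely by cardiomyocytes, that acts on the endothelium of neighbouring capillaries. It signals mainly through VEGFR2, the product of Kdr, while VEGFR1, the product of Flt1, binds it with higher affinity and signals weakly, and a soluble form of VEGFR1 acts as a decoy. Angiopoietin-1, made by mural cells and other cells around the vessel, activates the receptor TIE2 (Tek), with TIE1 as its co-receptor, and this keeps the vessel quiescent. PECAM-1, VE-cadherin (Cdh5) and claudin-5 hold endothelial cells together at their junctions. Von Willebrand factor is the endothelial clotting protein stored in Weibel-Palade bodies. The Cre therefore acts in a cell type that makes Vegfa, whereas the receptors and junction genes are read mainly from cells in which it is not active. In tissue such as this, fewer endothelial cells and less RNA per endothelial cell cannot be told apart.

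The promoters of the 4 receptors are shown because the receptors receive the VEGF and angiopoietin signals. How far each varies with the others between mice is described further on. RefSeq promoter windows on GRCm38.p6 matched 6 of the 10 genes by symbol (the 4 receptors, Vegfa and Cldn5). Each sequence is the 250 bases before the annotated start, 5′ to 3′ on the strand of the gene. Capitals mark GGAA on either strand (the core recognised by ETS factors, a family that includes the endothelial regulators ERG and FLI1), TATAAA, and TGACGTCA, the cAMP response element. None of these matches overlapped another motif.
Kdr, chr5:75978456-75978705, minus strand: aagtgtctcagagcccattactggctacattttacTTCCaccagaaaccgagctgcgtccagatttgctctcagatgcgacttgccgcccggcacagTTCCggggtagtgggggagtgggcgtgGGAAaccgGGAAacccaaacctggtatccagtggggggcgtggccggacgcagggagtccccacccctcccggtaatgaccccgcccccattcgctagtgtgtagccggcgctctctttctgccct
Tek, chr4:94739039-94739288, plus strand: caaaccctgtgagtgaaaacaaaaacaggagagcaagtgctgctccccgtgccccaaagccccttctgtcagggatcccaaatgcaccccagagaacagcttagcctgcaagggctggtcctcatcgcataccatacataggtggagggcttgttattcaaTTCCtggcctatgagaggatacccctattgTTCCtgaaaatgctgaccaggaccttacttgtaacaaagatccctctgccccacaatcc
Tie1, chr4:118489850-118490099, minus strand: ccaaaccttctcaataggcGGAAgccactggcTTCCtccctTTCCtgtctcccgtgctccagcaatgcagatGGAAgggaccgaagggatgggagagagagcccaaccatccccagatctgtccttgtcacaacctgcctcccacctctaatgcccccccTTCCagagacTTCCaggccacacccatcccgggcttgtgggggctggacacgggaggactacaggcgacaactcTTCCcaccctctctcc
Flt1, chr5:147726012-147726261, minus strand: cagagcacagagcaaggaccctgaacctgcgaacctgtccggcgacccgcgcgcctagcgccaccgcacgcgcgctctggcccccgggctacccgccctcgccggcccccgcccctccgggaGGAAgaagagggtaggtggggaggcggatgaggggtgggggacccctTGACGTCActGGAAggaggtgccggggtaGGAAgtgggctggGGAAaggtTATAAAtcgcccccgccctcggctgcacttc
The Kdr window held 4 GGAA matches, that of Flt1 held 4, that of Tek 2 and that of Tie1 7. Of the windows not printed, those of Vegfa held 6 and 2 and that of Cldn5 held 0. GGAA occurred in 93.4% of all 32851 promoter windows of this length. At least 2 matches stood in 76.8% of windows, at least 4 in 33.4%, at least 6 in 8.69% and at least 7 in 3.82%. The Flt1 window also held 1 TATAAA, 31 bases before the start, and 1 TGACGTCA, 81 bases before it. TATAAA occurred in 12.4% of windows and TGACGTCA in 1.55%. Neither motif had a match in the other windows, which says only that these letters were not there.

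Library totals, in 1e6 counts, lay between 14.4 and 30.9, and 3 counts correspond to 0.0972 to 0.208 CPM (counts per 1e6, on library sizes scaled by TMM). The smallest count of any of the 10 genes in any mouse was 164, for Cldn5, so no value was near the detection limit. The targeted gene Ppp2r2a had a mean ± SD of 37.4 ± 10.2 CPM in the 6 Ctrl males against 14.1 ± 1.81 in the 7 cKO males, and of 40.4 ± 3.60 in the 6 Ctrl females against 13.4 ± 2.07 in the 7 cKO females. Its log2 fold change, cKO against Ctrl, was -1.40 in males (edgeR adjusted p = 1.86e-06) and -1.58 in females (edgeR adjusted p = 1.9e-07). Ctrl males 3 and 6 had 24.9 and 24.1 CPM of Ppp2r2a, the lowest among controls, and the genotype effects below were also computed without them. Ctrl female 2, cKO female 7 and Ctrl male 4 stood apart in the endothelial genes and are described where they bear on a value.

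The first question was whether loss of B55α from cardiomyocytes went with a different level of these vascular genes in either sex. None of the 10 genes passed an adjusted p of 0.05 in either sex, where edgeR's quasi-likelihood test called 0.443% of all tested genes in males and 0.0326% in females. DESeq2 and limma voom also called 0 of the 10 in both sexes. At an unadjusted p under 0.05 there were 2 of 10 in males, Vwf and Flt1, both with positive fold changes, and 0 of 10 in females. With each mouse left out in turn the male count was 1 (without cKO male 2) to 3 (without Ctrl male 4) and the female count was 0. Over all genes that share was 13.2% in males (6.11% higher and 7.09% lower) and 5.15% in females (2.73% higher and 2.42% lower). For none of the 10 did the cKO and Ctrl values of a sex separate completely, which 1.28% of all tested genes did in males and 0.169% in females. The median log2 fold change of the 10 was -0.04 in males and 0.04 in females, against 0.0010 and 0.0028 over all tested genes, and 5 of 10 were above 0 in males and 8 of 10 in females. The 95% interval of the log2 fold change lay within 0.5 of 0 for 7 genes in males, all but Angpt1, Vwf and Cldn5, and for 6 in females, all but these 3 and Kdr. The values of each gene in each mouse are plotted next, and the genes then follow by role.

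**Figure D1:**
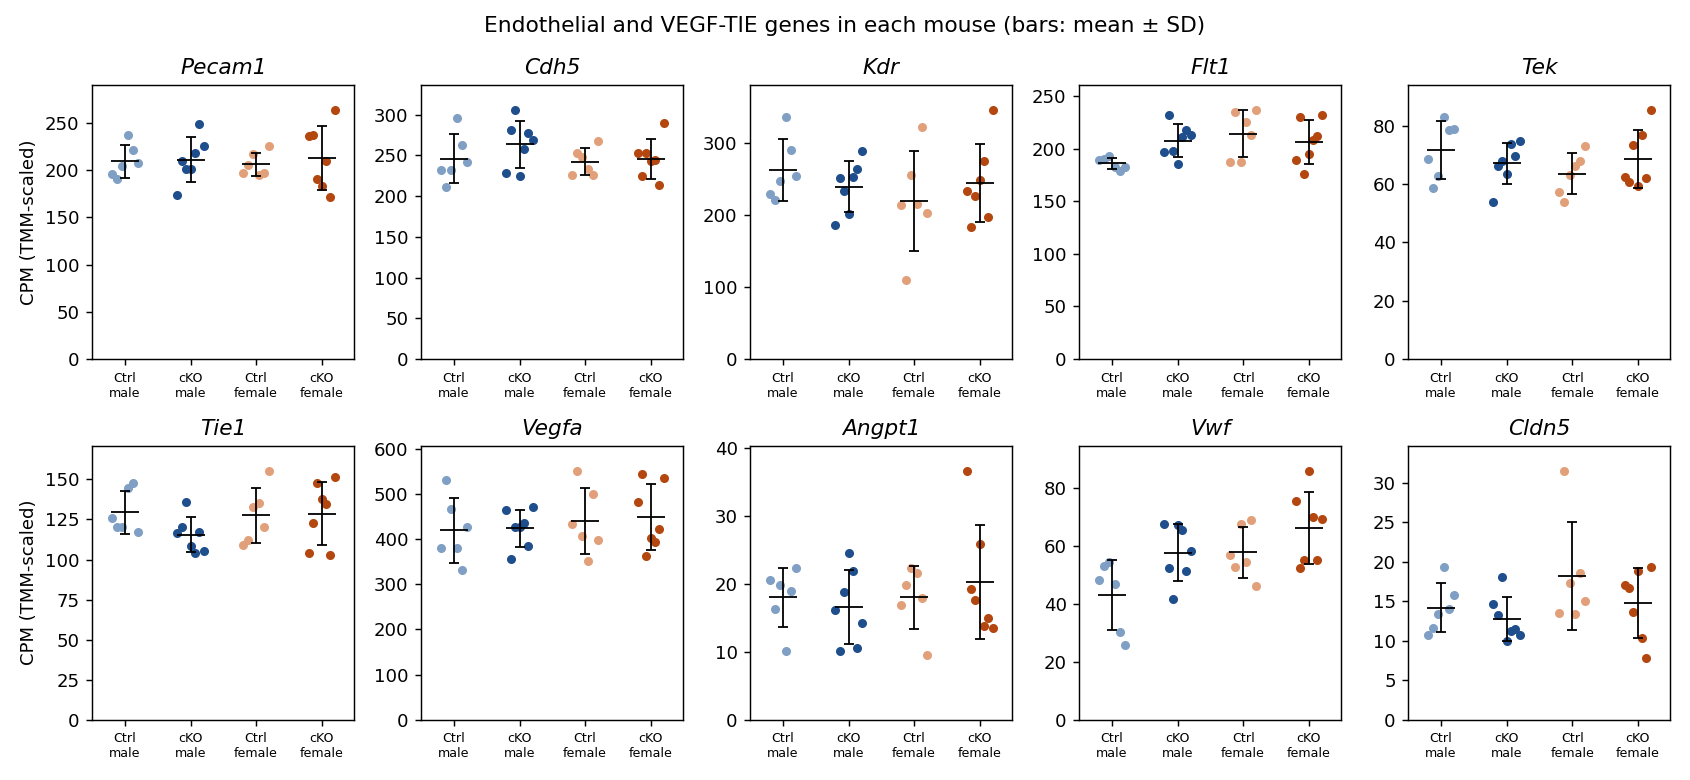
Each panel plots 1 gene, with TMM-scaled CPM on the vertical axis from 0 and the 4 groups along the horizontal axis. Points are single mice, and black bars are the mean ± SD of 6 Ctrl or 7 cKO mice per sex. All groups overlap in every panel, the Ctrl males lie low for Flt1 and Vwf, and the lowest Kdr and highest Cldn5 points belong to the same Ctrl female.

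Vegfa encodes the ligand of the VEGF receptors and, per length of exon, had the highest level of the 10 genes. In Ctrl males, Vegfa had a lowest, median and highest value of 332, 404 and 531 CPM, against 357, 427 and 471 in cKO males. In Ctrl females, Vegfa had 351, 419.7 and 552 CPM, against 362, 422 and 545 in cKO females. All 7 cKO males and all 7 cKO females lay inside the range of the controls of their sex. The cKO to Ctrl ratio of Vegfa was 1.01 in males (95% interval 0.861 to 1.19) and 1.02 in females (0.869 to 1.20).

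Angpt1, the TIE2 agonist, was the most variable of the genes between mice. In Ctrl males, Angpt1 ran over 10.1, 19.3 and 22.3 CPM (lowest, median, highest), and in cKO males over 10.1, 16.2 and 24.5. In Ctrl females, Angpt1 ran over 9.56, 18.9 and 22.3 CPM, and in cKO females over 13.5, 17.6 and 36.7. The highest value of all 26 mice belonged to cKO female 1, and the medians of the cKO groups were below those of the controls in both sexes. Its fold change was -0.11 on the log2 scale in males (SE 0.25) and 0.16 in females (SE 0.25), so that mean and median differ in direction in females. Without cKO female 1 the female value was -0.051. With each mouse left out in turn the male value ran from -0.23 without Ctrl male 4 to -0.017 without cKO male 2. The ratio had a wide interval, 0.645 to 1.33 in males and 0.778 to 1.61 in females.

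Of the VEGF receptors, Kdr carries most of the signal and Flt1 binds and retains the ligand. In Ctrl males, Kdr had a lowest, median and highest value of 219.9, 250.5 and 336 CPM, against 185, 250.5 and 288 in cKO males. In Ctrl females, Kdr had 109.5, 214 and 322 CPM, against 183, 233 and 345 in cKO females. The groups overlapped widely, and the lowest value of all 26 mice, in Ctrl female 2, stood well below those of the other Ctrl females. Kdr differed by -0.13 in cKO males (SE 0.17) and 0.15 in cKO females (SE 0.18) on the log2 scale. Without Ctrl female 2 the female value was 0.01, and without Ctrl male 4 the male value was -0.050. As a ratio the interval for Kdr was 0.709 to 1.17 in males and 0.864 to 1.43 in females.

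Flt1 was the least variable of the 10 genes. In Ctrl males, Flt1 had 179, 186 and 193 CPM (lowest, median, highest), and in cKO males 185, 211 and 232. In Ctrl females, Flt1 had 187, 219 and 237 CPM, and in cKO females 176, 208 and 233. Thus 6 of 7 cKO males lay above the highest Ctrl male, while cKO and Ctrl females occupied nearly the same range. The difference was 0.16 in males (SE 0.07), with an unadjusted edgeR p of 0.0226 and an adjusted p of 0.279, and -0.06 in females (SE 0.07, adjusted p = 0.982). Without Ctrl males 3 and 6 the male difference was 0.17 (edgeR adjusted p = 0.365). Counts per gene do not separate the soluble from the membrane form of VEGFR1.

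Tek encodes TIE2, the receptor that binds angiopoietins. In Ctrl males, Tek had 58.7, 73.6 and 83.0 CPM (lowest, median, highest), and in cKO males 54.1, 68.1 and 74.8. In Ctrl females, Tek had 53.8, 64.7 and 73.0 CPM, and in cKO females 59.3, 62.3 and 85.5. The groups overlapped, with 3 of 6 Ctrl males above every cKO male and 3 of 7 cKO females above every Ctrl female. Tek differed by -0.10 in males (SE 0.09) and 0.11 in females (SE 0.10), neither past the test. For the co-receptor TIE1 the male groups were a little further apart. In Ctrl males, Tie1 had 117, 123 and 148 CPM, and in cKO males 104, 117 and 136. In Ctrl females, Tie1 had 109, 126 and 156 CPM, and in cKO females 103, 135 and 151. Of 7 cKO males, 4 lay below the lowest Ctrl male, and in females the ranges nearly coincided. The male difference in Tie1 was -0.17 (SE 0.09, edgeR adjusted p = 0.462), and -0.22 without Ctrl males 3 and 6 (adjusted p = 0.367). In females it was 0.01 (SE 0.09).

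Pecam1 and Cdh5, the adhesion molecules found at the junctions of nearly all endothelial cells, gave narrow intervals. In Ctrl males, Pecam1 had 191, 206 and 237 CPM (lowest, median, highest), and in cKO males 174, 209.8 and 249. In Ctrl females, Pecam1 had 195, 201 and 225 CPM, and in cKO females 172, 209.8 and 264. In both sexes the cKO mice reached both above and below the controls. The cKO to Ctrl ratio was 1.01 in males (95% interval 0.895 to 1.14) and 1.04 in females (0.918 to 1.17). VE-cadherin gave a similar picture. In Ctrl males, Cdh5 had 211, 237 and 296 CPM, and in cKO males 225, 268 and 306. In Ctrl females, Cdh5 had 226, 241 and 268 CPM, and in cKO females 213, 244 and 289.9. The Cdh5 groups overlapped in both sexes, and the ratio was 1.07 in males (0.959 to 1.19) and 1.01 in females (0.909 to 1.13).

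Cldn5 encodes the tight junction protein of endothelium. In Ctrl males, Cldn5 had 10.8, 13.7 and 19.4 CPM (lowest, median, highest), and in cKO males 9.92, 11.5 and 18.1. In Ctrl females, Cldn5 had 13.4, 16.2 and 31.6 CPM, and in cKO females 7.81, 16.7 and 19.3. The highest of the 26 values was that of Ctrl female 2, far from the other Ctrl females. The difference was -0.15 in males (SE 0.21) and -0.31 in females (SE 0.21). It was -0.038 in males without Ctrl male 4, and -0.08 in females without Ctrl female 2.

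Vwf, in the heart expressed more strongly in larger vessels and endocardium than in capillaries, gave the largest difference of the 10 genes in males. In Ctrl males, Vwf had 25.9, 47.4 and 54.4 CPM (lowest, median, highest), and in cKO males 41.5, 58.3 and 67.4. In Ctrl females, Vwf had 46.2, 55.5 and 68.7 CPM, and in cKO females 52.2, 69.1 and 85.8. In each sex 4 of 7 cKO mice lay above the highest control, and in males the lowest 2 of all 26 values were those of Ctrl males 6 and 5, at 25.9 and 30.2 CPM. The difference was 0.42 in males (SE 0.16), a ratio of 1.34 with a 95% interval of 1.06 to 1.68, at an unadjusted edgeR p of 0.0158 and an adjusted p of 0.244. In females it was 0.20 (SE 0.16, adjusted p = 0.975). With each mouse left out in turn the male value ran from 0.31 without Ctrl male 6 to 0.50 without Ctrl male 3. Without Ctrl males 3 and 6 it was 0.37 (edgeR adjusted p = 0.315).

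The second question, named in the series title, was whether the genotype effect differed between the sexes. The interaction called 0 of the 10 genes by edgeR, DESeq2 or limma voom, and 0% of all genes by edgeR. At an unadjusted p under 0.05 it gave 1 of 10, Flt1, where the share over all genes was 3.96% (2.04% higher and 1.91% lower). For Flt1 the female effect minus the male effect was -0.22 (SE 0.09, unadjusted p = 0.0288, edgeR adjusted p = 0.999). Without Ctrl female 2, Ctrl female 6, cKO female 3 or cKO male 2 this count was 0. For Vwf it was -0.22 (SE 0.23), for Kdr 0.29 (SE 0.25) and for Tie1 0.18 (SE 0.13). Each of these genes therefore had sex-specific estimates that the test of their difference did not separate. The mean of the male and female effects also called 0 of the 10 by edgeR, DESeq2 and limma voom, against 1.33% of all genes by edgeR. Vwf alone had an unadjusted p under 0.05 in this mean, where 14.1% of all genes did (6.43% higher and 7.7% lower). Its mean effect was 0.31 (SE 0.11, edgeR adjusted p = 0.19).

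Between females and males of one genotype, again 0 of the 10 genes were called by edgeR, DESeq2 or limma voom, against 0.638% of all genes by edgeR in Ctrl and 2.7% in cKO. In Ctrl mice the female to male log2 fold change of Flt1 was 0.20 (SE 0.07, unadjusted p = 0.00603, edgeR adjusted p = 0.183), with 4 of 6 Ctrl females above the highest Ctrl male. For Vwf it was 0.42 (SE 0.17, edgeR adjusted p = 0.293), with 3 of 6 above the highest. These were the 2 of 10 genes under an unadjusted p of 0.05, where 12.1% of all genes were (6.2% higher and 5.87% lower), and the count ran from 1 (without Ctrl male 5) to 3 (without Ctrl male 2). In cKO mice 0 of 10 were (at most 1 with any mouse left out), against 17.3% of all genes (9.11% higher and 8.15% lower), and the sex difference was -0.01 for Flt1 and 0.20 for Vwf. Kdr, Tek and Cldn5 had sex differences in Ctrl of -0.26 (SE 0.18), -0.18 (SE 0.10) and 0.36 (SE 0.22), which without Ctrl female 2 were -0.12, -0.13 and 0.13. No gene of the 10 had females and males that separated completely, which 1.02% of all genes did in Ctrl and 1.09% in cKO. The male genotype effect and the sex difference in Ctrl share the Ctrl males, whose Flt1 and Vwf values were the lowest of the 4 groups by mean, 186 ± 5.54 CPM (SD, n = 6) for Flt1 and 43.0 ± 12.0 CPM (SD, n = 6) for Vwf.

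**Figure D2:**
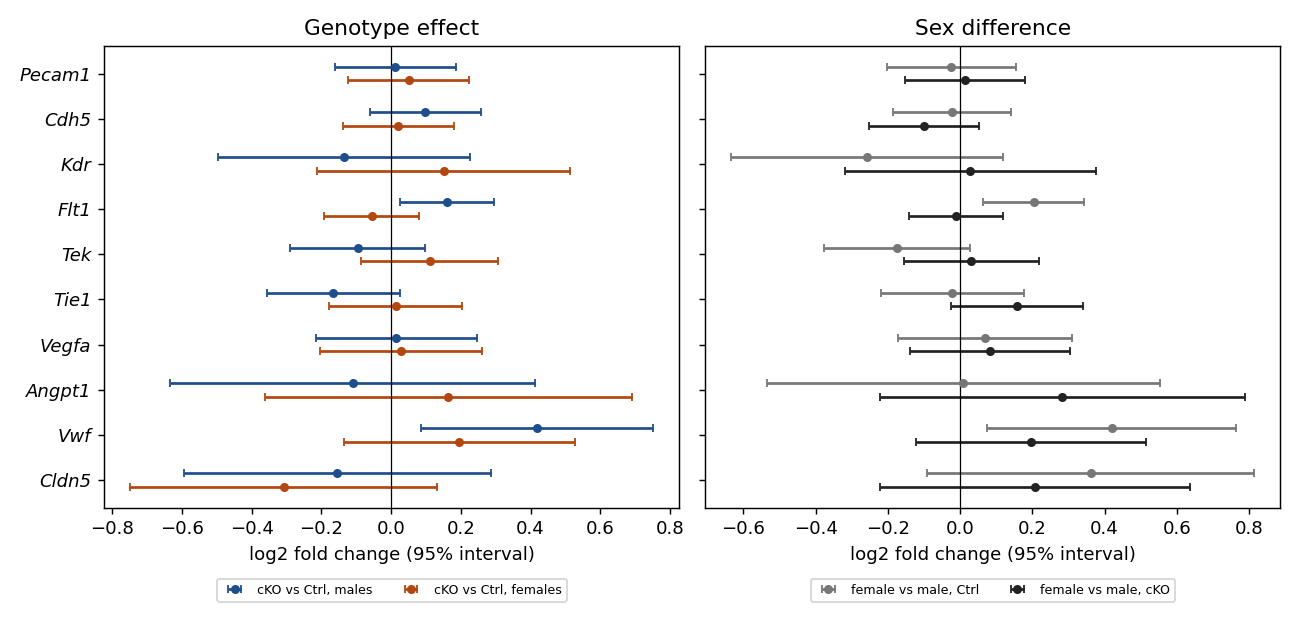
Points are edgeR log2 fold changes of the 10 genes with 95% intervals on a horizontal log2 axis, cKO against Ctrl by sex on the left and female against male by genotype on the right. The intervals of Flt1 and Vwf leave out 0 in males and in Ctrl, at adjusted p-values of 0.183 to 0.293, and those of Angpt1, Cldn5 and Kdr are the widest.

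Per kilobase of exon the genes spanned a wide range. The level over the 26 mice was 101 CPM per kb for Vegfa, 59.5 for Cdh5, 33.7 for Pecam1, 26.7 for Kdr, 25.4 for Tie1, 15.1 for Flt1, 14.4 for Tek, 10.5 for Cldn5, 3.52 for Vwf and 3.50 for Angpt1. Vegfa was above Cdh5, Cdh5 above Pecam1, Tie1 above Flt1, and Cldn5 above Vwf in 26 of 26 mice, with no overlap of their ranges. The other neighbours overlapped: Pecam1 was above Kdr in 25 mice, Kdr above Tie1 in 16, Flt1 above Tek in 17, Tek above Cldn5 in 24 and Vwf above Angpt1 in 14. On this scale the 2 ligands sat at the opposite ends of the order, and the signalling receptor Kdr was above the decoy-forming Flt1. Flt1 has 13.5 kb of annotated exon and Kdr 9.03 kb, as the union of exons over all annotated transcripts. The orders on this scale depend on that divisor. In CPM the lowest Flt1 value, 176, was above the highest Tie1 value, 156. Vwf had a higher mean CPM than Cldn5 in every group, 43.0 against 14.2 in Ctrl males. In CPM the Flt1 to Kdr ratio had a median of 0.75 in Ctrl males, 0.849 in cKO males, 0.964 in Ctrl females and 0.787 in cKO females, and reached 2.15 in Ctrl female 2.

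**Figure D3:**
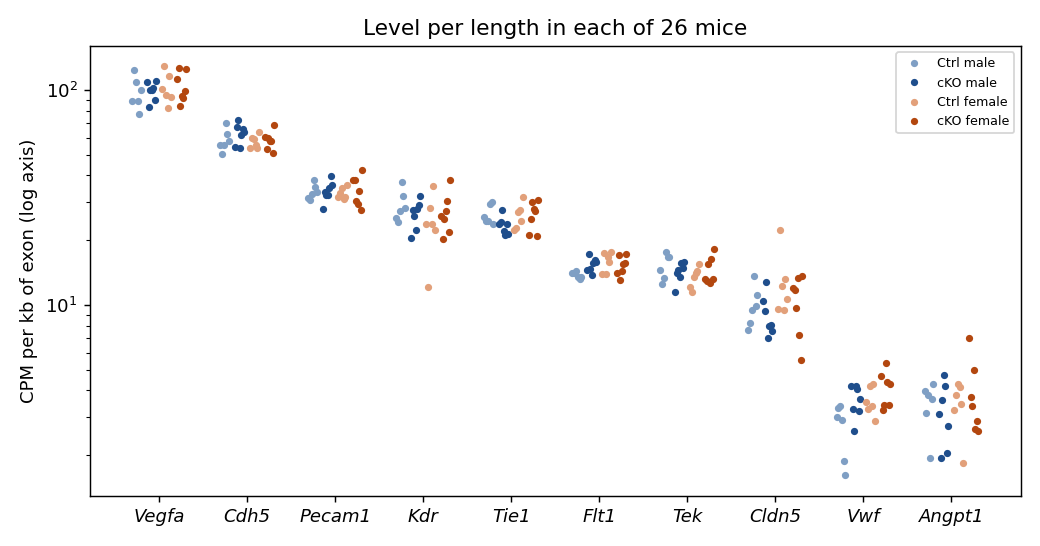
The vertical axis, which is logarithmic, gives CPM per kb of exon for each gene along the horizontal axis, and each point is 1 of 26 mice coloured by group. Vegfa lies above all other genes in every mouse, Vwf and Angpt1 lie lowest, and the 4 groups intermingle within each gene.

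The genes also differed in how much they varied between mice of one group. The biological coefficient of variation estimated by edgeR was 0.0891 for Flt1, 0.103 for Cdh5, 0.111 for Pecam1, 0.119 for Tie1, 0.120 for Tek and 0.144 for Vegfa. It was higher for Vwf at 0.199, Kdr at 0.218, Cldn5 at 0.261 and Angpt1 at 0.311. Among the 500 genes nearest in abundance, 56.8% varied less than Flt1, but 96.8% varied less than Kdr or Vwf, 95% less than Cldn5 and 99% less than Angpt1. For the other members this share was 72.4% for Cdh5, 78% for Pecam1, 84.8% for Tie1, 85.8% for Tek and 90.8% for Vegfa. The receptors of VEGF-A thus lay at the opposite ends of the receptors' range in this respect.

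Variation shared between genes was read from each mouse's deviation from its group mean in log2 CPM over 26 mice, as a description, since all values of a mouse come from 1 library. Of 45 pairs, 7 had a Pearson r above 0.5. Kdr and Tek, the signalling receptors of the VEGF and angiopoietin systems, varied together most closely, with r = 0.70, Spearman rho = 0.69, and r = 0.74 without the 2 mice farthest in Kdr. The other 6 pairs were Cdh5 with Tek (0.65), Pecam1 (0.64), Tie1 (0.62) and Cldn5 (0.53), and Tek with Pecam1 (0.57) and Tie1 (0.52). Without the 2 mice farthest in 1 gene of the pair these 6 lay between 0.42 and 0.54. For Flt1 the r was 0.35 with Pecam1, 0.18 with Cdh5, 0.15 with Tek, 0.08 with Tie1 and -0.09 with Kdr. Against the mean of the other 7 endothelial genes, r was 0.75 for Cdh5, 0.63 for Pecam1, 0.59 for Tek, 0.49 for Tie1, 0.48 for Kdr, 0.25 for Cldn5, 0.14 for Flt1 and -0.22 for Vwf. Some of these moved with few mice: without Ctrl female 2 the r of Kdr was 0.65 and that of Cldn5 0.40. Without the 2 mice farthest in the mean of the other 7, r was 0.68 for Cdh5, 0.50 for Tek and 0.41 for Pecam1. It was then 0.33 for Kdr, 0.27 for Tie1, 0.04 for Flt1, -0.06 for Cldn5 and -0.42 for Vwf. Against the mean of all 8 endothelial genes, r was -0.07 for the ligand Vegfa (Spearman rho -0.22) and -0.42 for Angpt1 (rho -0.40). Without the 2 mice farthest in that mean, r was -0.37 for Vegfa and -0.53 for Angpt1. The lowest of the 45 values was that of Flt1 with Angpt1, -0.48.

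**Figure D4:**
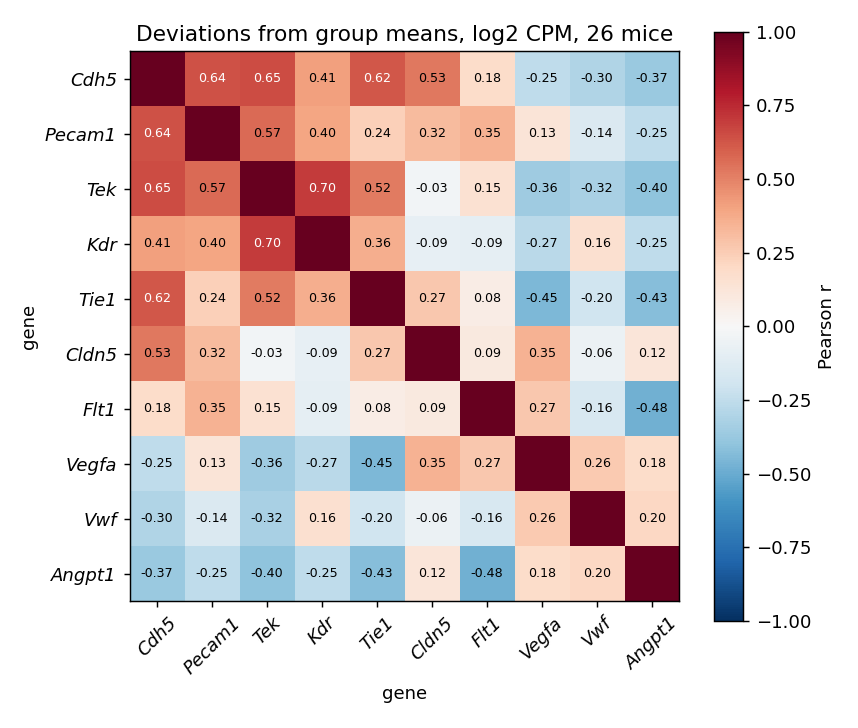
Both axes list the 10 genes, and each cell gives the Pearson r of their deviations from group means in log2 CPM over 26 mice, coloured from -1 in blue to 1 in red. Cdh5, Pecam1, Tek, Kdr and Tie1 form the red block at the upper left (r of 0.24 to 0.70), and Flt1 reaches 0.35 with Pecam1, while Vwf, Vegfa and Angpt1 are mostly in blue or white against it.

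Single mice carried part of this pattern. In cKO female 7 the values of Kdr, Pecam1 and Tek were the highest of 26, Tie1 ranked 2, Cdh5, Cldn5, Flt1 and Vegfa ranked 3 and Vwf 4, while Angpt1 ranked 22. In cKO female 6 the values of Pecam1, Tie1 and Cldn5 were the lowest of 26. In Ctrl male 4 Cdh5, Kdr, Tek and Cldn5 ranked 2, Pecam1 ranked 4 and Tie1 5. Its Vegfa and Vwf ranked 22, Flt1 23 and Angpt1 24. Ctrl female 2 did not follow the common pattern. Its Kdr (109.5 CPM) and Tek (53.8 CPM) were the lowest of 26 and its Vegfa (552 CPM) and Cldn5 (31.6 CPM) the highest, its Flt1 (235 CPM) ranked 2, and its Pecam1 (205 CPM) and Cdh5 (252 CPM) were in the middle. In this mouse the summed level of 23 further endothelial genes was the second highest of 26, 2489 CPM against a median of 1935 in Ctrl females. Aqp1 weighs most in that sum, with 582 ± 186 CPM in Ctrl females (SD, n = 6), so the sum does not speak for the 23 genes evenly. The summed level of 7 arterial markers was the lowest, 115.2 CPM, close to 115.7 in the next mouse. Of 4 mesothelial markers, Wt1 was at 25.5 CPM, against 3.43 to 5.29 in the other Ctrl females, Krt19 was at 0.098 CPM, and Upk3b and Msln had 0 counts. From the highest of 26, its erythroid sum (1545 CPM) and adipocyte sum (3.80 CPM) both ranked 2. Its platelet and lymphatic sums both ranked 3, its cardiomyocyte sum 4, venous 6, mural 7, fibroblast 8, macrophage 10 and endocardial 23. The part of these cell types in the values of this mouse was not tested. Leaving out cKO female 7 turned the female genotype effect of Pecam1 (-0.0082), Cdh5 (-0.023) and Tie1 (-0.030) from just above to just below 0. Without Ctrl female 2 the r of Kdr with Cdh5 was 0.59 in place of 0.41, and that of Kdr with Tek was 0.70 as before.

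**Figure D5:**
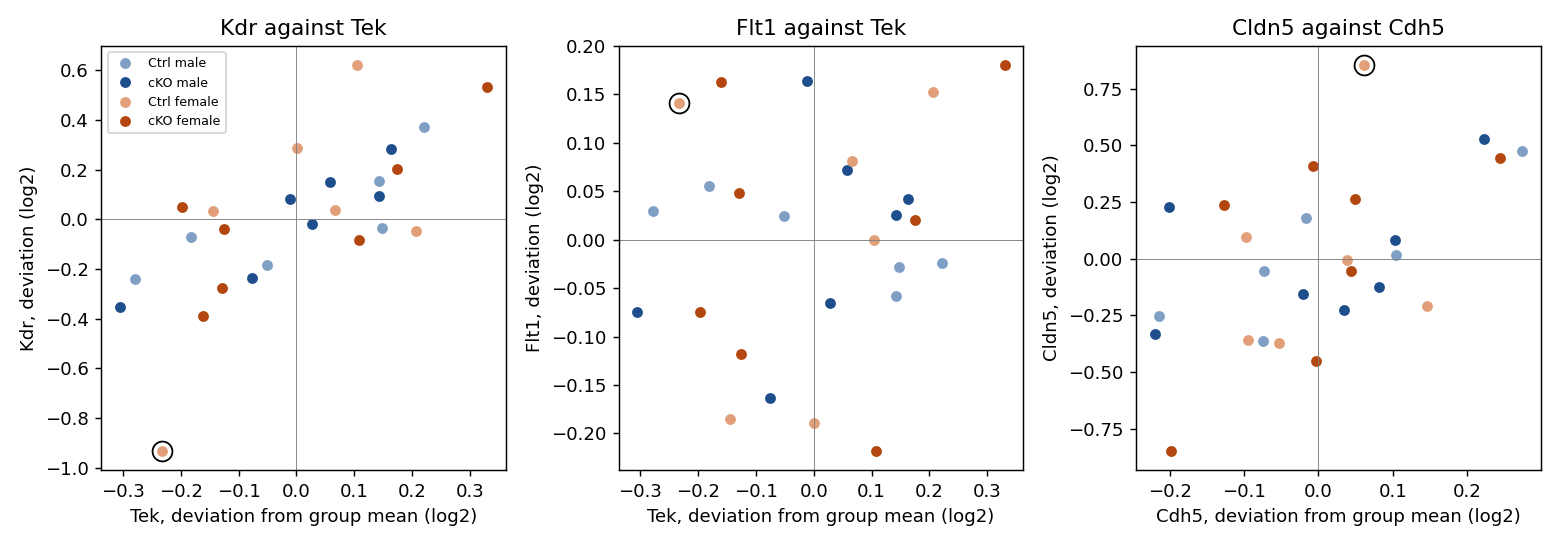
The panels plot each mouse's deviation from its group mean in log2 CPM, Kdr against Tek, Flt1 against Tek and Cldn5 against Cdh5, with points coloured by group and a circle around Ctrl female 2. Kdr follows Tek over 26 mice (r = 0.70), Flt1 does so little (r = 0.15), and the circled mouse lies far from the rest for Kdr and Cldn5.

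Genes whose deviations were most like the mean of the 8 endothelial genes, among all 15357 tested, were Gimap6 (r = 0.84), Uaca (0.83), Tcf4 (0.81), Sipa1 (0.80) and Usp43 (0.79). For Vegfa they were Adam19 (0.88), Shb (0.85), Pom121 (0.84), Slc20a1 (0.83) and Smurf2 (0.83). For Angpt1 they were Slc22a3 (0.81), Tnni3k (0.80), Abca12 (0.78), Ctnna1 (0.78) and Rbfox1 (0.77). These are the top values of a search over all genes in 26 mice and are given as a description.

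Other genes of the same systems are given by count. Of 23 further endothelial genes, all 23 were tested and edgeR called 0 in males, females, the interaction or the mean, as did DESeq2 and limma voom. Their median log2 fold change was 0.02 in males and 0.06 in females, with 0 of 23 under an unadjusted p of 0.05 in either. By the smallest p in the mean effect these were led by Plvap, the diaphragm protein of fenestrated endothelium, at 0.32 (SE 0.16, edgeR adjusted p = 0.355), Eng, the TGF-beta co-receptor endoglin, at 0.13 (SE 0.08), and Icam2 at -0.11 (SE 0.07). Of 15 further genes of VEGF and TIE signalling, 14 were tested and edgeR called 0 in any of these contrasts, with 1 under an unadjusted 0.05 in males, 0 in females and 1 in the mean. Over all genes these shares were 13.2%, 5.15% and 14.1%. Of the 14, 7 had positive fold changes in males and 14 in females, where 7844 of all 15357 genes did. The female values ran from 0.0096 to 0.40 with a median of 0.06, and their smallest edgeR adjusted p was 0.948. Between sexes edgeR called 0 of either list. Under 0.05 were 2 of 14 and 5 of 23 in Ctrl (12.1% of all genes), and 3 of 14 and 1 of 23 in cKO (17.3%). Svep1, an extracellular matrix protein that binds TIE1, was 13.6 ± 1.37 CPM in Ctrl males (SD, n = 6) and 19.4 ± 3.91 in cKO males (SD, n = 7). Its male difference was 0.51 (SE 0.14, edgeR adjusted p = 0.0847), and the mean effect was 0.35 (SE 0.10, edgeR adjusted p = 0.0748). DESeq2 called Svep1 in both, and limma voom in neither. Flt4, the receptor of lymphatic endothelium, and its ligand gene Vegfd followed, with mean effects of 0.13 (SE 0.06) and 0.22 (SE 0.14).

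Among 15 hypoxia genes, which include regulators of Vegfa, edgeR called 0, with 1 of 15 under an unadjusted 0.05 in males, 0 in females and 5 in the mean effect, where 14.1% of all genes were. Of these 5, Hif1a and Epas1 had positive values and Slc2a1, Egln2 (-0.09, SE 0.04) and Ldha (-0.09, SE 0.04) negative ones. Epas1, which encodes HIF-2α, had 399 ± 21.9 CPM in Ctrl males (SD, n = 6) and 461 ± 26.2 in cKO males (SD, n = 7), a difference of 0.21 (SE 0.06, edgeR adjusted p = 0.0754). In females Epas1 had 445 ± 37.5 CPM in Ctrl (SD, n = 6) and 457 ± 34.0 in cKO (SD, n = 7), a difference of 0.04 (SE 0.06). The female effect minus the male effect was -0.17 (edgeR adjusted p = 0.999). Ctrl males thus had the lowest Epas1 mean of the 4 groups. The sex difference in Ctrl was 0.16 (SE 0.06, edgeR adjusted p = 0.244). DESeq2 called Epas1 in males and in the mean effect, and limma voom in males. Hif1a had a mean effect of 0.17 (SE 0.08) and the glucose transporter gene Slc2a1 one of -0.18 (SE 0.08), with edgeR adjusted p-values of 0.279 and 0.309. Vegfa, a target of these factors, differed by 0.02 in the same contrast (SE 0.08). Of 13 partners of the junction proteins, 12 were tested and 0 called by any of the 3 tools. At an unadjusted p under 0.05 there were 3 of 12 in males, 0 in females and 1 in the mean effect. Over all genes these shares were 13.2%, 5.15% and 14.1%. Ctnnd1, the p120 catenin that binds VE-cadherin, had a mean effect of 0.14 (SE 0.06), Jup (plakoglobin) 0.09 (SE 0.05) and Tjp1 (ZO-1) 0.08 (SE 0.04).

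Markers of other cells were read beside these results. The summed level of 7 cardiomyocyte markers was 62631 to 70136 CPM in Ctrl males, 55052 to 65721 in cKO males, 63418 to 76409 in Ctrl females and 60172 to 71745 in cKO females, and none was near 0. Of these markers 6 of 7 had negative fold changes in males and 7 of 7 in females. Tnni3 (troponin I) was the 1 of 7 called by edgeR in males, at -0.24 (adjusted p = 0.0316, where 0.443% of all genes were called), and in the mean effect, at -0.17 (adjusted p = 0.0168, where 1.33% were). Between cKO sexes Tnni3 and Myl2 were called, both higher in females, at 0.24 and 0.26 (edgeR adjusted p = 0.00821 and 0.0231). Over 26 mice the mean of the 8 endothelial genes had an r of -0.45 with the cardiomyocyte sum. With the sum of the 23 further endothelial genes its r was 0.30, and 0.09 without the 2 mice farthest in the mean of the 8. Aqp1 weighs most in the sum of those 23. The 4 endocardial markers summed to 38.2 to 65.1 CPM in Ctrl males and 55.1 to 65.7 in cKO males, and 51.7 to 69.7 and 53.8 to 76.2 in Ctrl and cKO females. Ctrl males 5 and 6 had the lowest endocardial sums of all 26 mice, 38.2 and 45.3 CPM, and they are the mice with the lowest Vwf. All 4 endocardial genes had positive fold changes in both sexes, with medians of 0.19 in males and 0.20 in females. None of the 4 was called in males, females or the mean effect by edgeR, DESeq2 or limma voom, with 1 of 4 in each under an unadjusted edgeR p of 0.05 and, in the mean effect, 2 by DESeq2 and 3 by limma voom. Over all genes the edgeR share under 0.05 was 13.2% in males, 5.15% in females and 14.1% in the mean effect. That share was not counted for DESeq2 or limma voom. At an adjusted p under 0.05 they called 504 and 312 genes in the mean effect, against 205 by edgeR. Between cKO sexes DESeq2 called 1 of the 4, Cytl1. Fibroblast markers, 6 genes, summed to 637 to 961 CPM in Ctrl males and 744 to 984 in cKO males, and to 618 to 841 and 688 to 902 in Ctrl and cKO females. In males 5 of 6 and in females 6 of 6 had positive fold changes, and edgeR called 0 in either, with 1 and 0 under an unadjusted 0.05. Col1a1, a collagen gene, differed by 0.52 in males (SE 0.12, edgeR adjusted p = 0.0553) and 0.11 in females (SE 0.12), and DESeq2 and limma voom called it in males, in the mean effect and between cKO sexes. Platelet markers, 6 genes of a cell type that also holds Vwf protein, summed to 9.93 to 18.6 CPM in Ctrl males and 9.73 to 23.0 in cKO males. Of the mural, macrophage, platelet, erythroid, adipocyte and mesothelial markers 0 were called in males, females or the mean effect by edgeR, DESeq2 or limma voom, and 0 had an unadjusted p under 0.05 in these. The part of these cell types in the Vwf and Flt1 values was not tested.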

How the data were processed

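Left ventricle RNA with an integrity number of at least 7.7 was sequenced from stranded poly-A libraries, per the labels' protocols. The authors deposited raw counts per gene in 1 matrix. The submitters' processing notes name FastQC 0.74, cutadapt 4.6, STAR 2.7.11a, HTSeq and GRCm39. Which annotation release was counted, and whether by strand, is not given in the sources used here, so overlapping and antisense genes could share reads. Rows without a gene name (310) were kept under their identifier.

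Groups follow genotype and sex in the labels. Counts of the 72 pairs of mice within groups differed beyond sampling noise (chi-square per degree of freedom 7.79 to 36.4), so all 26 were kept. edgeR 4.0.16 in R 4.3.3 was used with filterByExpr (minimum count 10), TMM, robust quasi-likelihood fits and 1 model of 4 group means. The 6 contrasts were cKO against Ctrl in each sex, their difference and mean, and female against male in each genotype. The Benjamini-Hochberg adjustment ran over all 15357 genes tested, with calls at an adjusted p under 0.05. Intervals are at 95%, with the standard error taken as the fold change over the root of F. Deviations used log2 CPM with a prior count of 2. Exon lengths, the union over all transcripts of a gene, came from GENCODE M21 on GRCm38 by gene identifier, and promoters from RefSeq GRCm38.p6.

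The members and lists were chosen with earlier results of these data known. The text names the 10 genes, Ppp2r2a, of 4 lists (endothelial, VEGF and TIE, hypoxia, junction) the genes called or else the 3 of smallest p in the mean effect, the 5 genes most like each of 3 patterns, and markers of other cells called by any tool for a genotype effect. Other genes were named after their values were seen (Aqp1, Egln2, Ldha, Cytl1, Krt19, Msln, Myl2, Upk3b, Wt1). Alternatives were DESeq2 1.42.0, its size factors in edgeR, limma 3.58.1 voom, 2 filters on low counts, only the compared groups, the replicate number as a block, omission of Ctrl males 3 and 6, and of each mouse. The edgeR fit was also run on counts simulated from its own dispersions at Ctrl male means, with changes planted in cKO males. That simulation held no outlying mice, so it cannot show how such mice affect these genes.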

Additional observations from a re-analysis of the deposited data

Results flagged for a closer look

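Cldn5 in Ctrl female 2 was 31.6 CPM. The nearest other Ctrl female had 18.6 CPM and the lowest 13.4, and the gap to the nearest, 0.716 of the whole range, was above Dixon's critical value of 0.625 for 6 mice. Among 40 sets of 1 gene in 1 group, this was the only one past that value, and chance passes about 1 in 20. The same mouse had the lowest Kdr and Tek and the highest Vegfa of all 26.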

How the results depend on the processing

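In each of the 6 comparisons 0 of the 10 genes were called under every alternative run (34 settings, except that a fit of only the compared groups was not run for the interaction or the mean effect), and the smallest adjusted p of any of them was 0.0838. Of 2020 recomputed fold changes, 1910 kept their direction and 110 turned, in 25 of the 60 fold changes, all with a main size of at most 0.16 on the log2 scale. The count of all genes called moved most: DESeq2 called 370 in males (68 with edgeR), 9 in females (5), 504 in the mean effect (205), 247 between Ctrl sexes (98) and 690 between cKO sexes (414). Limma voom with quality weights called 188 in males, 312 in the mean effect and 670 between cKO sexes. No filter on low counts gave 31, 113 and 244 in these, and a mean of at least 5 CPM gave 164 in males and 2 in females. When the fit held only the groups compared, 1 gene was called in females and 61 between Ctrl sexes. Without Ctrl males 3 and 6 there were 7 in males and 40 between Ctrl sexes. Why these counts moved was not tested.

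Directions that turned were of small size. Under limma voom they were Pecam1 in the interaction (-0.018) and between cKO sexes (-0.040), Angpt1 in the mean effect (-0.045) and between Ctrl sexes (-0.022), and Tie1 between Ctrl sexes (0.0039). Without Ctrl males 3 and 6 they were Pecam1 (-0.0013) and Angpt1 (0.017) in males, Vegfa in the interaction (-0.035) and Kdr in the mean effect (-0.0090).

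The replicate numbers of the titles name different mice. Same-numbered Ctrl and cKO mice had a mean correlation of deviations over all genes of -0.026 in males (0 of 6 pairs over 0.1) and 0.12 in females (3 of 6 over 0.1, highest 0.404). The 36 different-numbered pairs of each sex had means of 0.0043 in males and -0.019 in females. Of the 6 numbers, 1 in males and 2 in females correlated best with their own. The numbers were not taken to pair the samples, and what raised the same-numbered female pairs was not tested. With the replicate block, 3 genes were called in females, and the other counts stayed within 1.5 times. Under the replicate block the sign turned for Pecam1 (-0.025) and Vegfa (-0.0078) in males, and for Cdh5 (-0.0045), Tie1 (-0.0018) and Vegfa (-0.0081) in females. It also turned for Vegfa in the interaction (-0.00027), for Pecam1 (-0.0068), Kdr (-0.045), Tek (-0.034) and Vegfa (-0.0080) in the mean effect, for Angpt1 between Ctrl sexes (-0.029) and for Kdr between cKO sexes (-0.0022).

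With 1 mouse left out at a time, all genes called ran from 4 (without Ctrl male 5) to 122 (without Ctrl female 6) in males and from 3 to 7 in females. They ran from 96 (without Ctrl male 5) to 349 (without Ctrl female 6) in the mean effect, from 54 (without Ctrl male 3) to 125 between Ctrl sexes, and from 163 (without cKO female 4) to 548 between cKO sexes. Fold changes whose sign turned had these ranges. In males they were Pecam1 (-0.031 to 0.054) and Vegfa (-0.045 to 0.093). In females they were Pecam1 (-0.0082 to 0.10), Cdh5 (-0.023 to 0.052), Tie1 (-0.030 to 0.076), Vegfa (-0.028 to 0.10) and Angpt1 (-0.051 to 0.24). In the interaction they were Pecam1 (-0.021 to 0.084), Vegfa (-0.065 to 0.089) and Cldn5 (-0.27 to 0.074), and in the mean effect Kdr (-0.061 to 0.079), Tek (-0.023 to 0.031), Vegfa (-0.0080 to 0.060) and Angpt1 (-0.081 to 0.073). Between Ctrl sexes they were Pecam1 (-0.052 to 0.016), Cdh5 (-0.065 to 0.038), Tie1 (-0.086 to 0.020), Vegfa (-0.0065 to 0.15) and Angpt1 (-0.12 to 0.14), and between cKO sexes Pecam1 (-0.044 to 0.060), Kdr (-0.076 to 0.086), Flt1 (-0.043 to 0.021) and Tek (-0.029 to 0.064).

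Depth did not limit the 10 genes, whose counts were at least 164. The spread between mice limits what was detectable for Angpt1, Cldn5, Kdr and Vwf. Counts per gene do not separate isoforms, the length scale comes from an annotation of another build, and tissue RNA does not separate endothelial subtypes.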

Other observations

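Markers of endothelial subtypes were also counted, chosen like the other lists with earlier results known. Of 7 arterial genes, edgeR called 0 in males, females or the mean effect, as did DESeq2 and limma voom. Under an unadjusted edgeR p of 0.05 there was 1 of 7 in males (Hey1, 0.26, SE 0.13) and 0 in females. Over all genes these shares were 13.2% and 5.15%. The median log2 fold change of the 7 arterial genes was 0.03 in males and 0.06 in females. Of 6 lymphatic genes, 5 had negative fold changes in males and 5 had positive ones in females, with medians of -0.20 and 0.10, and 0 were called by any of the 3 tools in either sex. Ccl21a, a chemokine of lymphatic endothelium and the 1 lymphatic gene under an unadjusted 0.05 in males, was 16.1 ± 3.78 CPM in Ctrl males and 11.4 ± 1.38 in cKO males (edgeR adjusted p = 0.271), and it belongs to a family of near-identical copies whose reads counting could split. Prox1, which marks lymphatic endothelium and is also expressed in heart muscle, was 52.3 ± 5.95 CPM in Ctrl males and 43.1 ± 4.50 in cKO males (edgeR adjusted p = 0.478). Of 4 venous genes only Nr2f2 and Ephb4 had enough counts to be tested, with mean effects of 0.10 (SE 0.07) and 0.02 (SE 0.05). Hey1, Ccl21a, Prox1, Nr2f2 and Ephb4 were singled out after their values were seen.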
